A study of Mus musculus with 8 samples.

Results

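The 9 genes described here carry the signal of leukemia inhibitory factor (LIF) from outside the cell to the nucleus: the ligand Lif, the receptor subunits Lifr and Il6st, the kinase Jak1, the transcription factor Stat3 and its target genes Socs3, Pim1, Pim3 and Gbx2. They were chosen by name, as the rows carrying these symbols in the gene table of each library, and not by a rule on their values, though results of these data were known when the set was named. All 9 were found once in each table among 39009 entries, carried no quality mark, and passed the filter on low values, which left 17011 genes for testing. Levels were measured by RNA sequencing in 8 mouse libraries that fall into 5 groups. Neural stem cells (NSC, 1 library) were taken from E13.5 embryos and cultured to passage 2. Small intestinal epithelial cells (IEC, 1 library) were primary cells from E13.5 embryos. Lines of chemically induced pluripotent stem cells (CiPSC) had been made from such cells with small-molecule compounds: NSC-CiPSC lines 1, 2 and 3, and IEC-CiPSC lines 10 and 13. The control was 1 library of the R1 embryonic stem cell line (ESC; strain 129X1 x 129S1). The strain label of NSC is C57BL/6J-Tg(GOFGFP)11Imeg/RbrcxICR, which names a GFP transgene, and the labels of the IEC library and all 5 lines are the same but for the number before Imeg, which differs in every library and runs up to 17 in IEC-CiPSC line 13. The compounds, and whether LIF was present in each culture medium, are not given in the sources used here.

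In this pathway LIF binds LIFR, which pairs with the shared subunit gp130, the product of Il6st. The paired receptor activates Janus kinases such as JAK1, which phosphorylate STAT3, and phosphorylated STAT3 enters the nucleus and switches on its targets. LIF is a standard supplement of mouse embryonic stem cell culture, where STAT3 activity supports self-renewal, while in neural precursors the same pathway is known for promoting astrocyte formation. SOCS3 is the feedback inhibitor that binds gp130 and JAK, PIM1 and PIM3 are serine/threonine kinases of growth and survival, and GBX2 is a homeobox factor that lies downstream of LIF in embryonic stem cells. RNA levels do not measure the phosphorylation of STAT3.

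The DNA in front of the targets is shown because 3 of these 4 members, all but Gbx2, rose in both comparisons of source cells with lines, and because STAT factors bind DNA at paired TTC and GAA triplets. Each sequence is the 250 bases before the first RefSeq start of the gene, on GRCm38.p6, 5′ to 3′ on the gene's strand, in lower case with any match to TTCNNNGAA or TTCNNNNGAA in capitals.
Socs3 chr11:117969367-117969616 (minus strand): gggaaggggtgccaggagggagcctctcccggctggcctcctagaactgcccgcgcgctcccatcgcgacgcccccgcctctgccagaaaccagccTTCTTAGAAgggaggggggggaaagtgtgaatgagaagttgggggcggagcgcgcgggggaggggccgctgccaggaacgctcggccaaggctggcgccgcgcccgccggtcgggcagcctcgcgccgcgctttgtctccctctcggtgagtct
Pim1 chr17:29490535-29490784 (plus strand): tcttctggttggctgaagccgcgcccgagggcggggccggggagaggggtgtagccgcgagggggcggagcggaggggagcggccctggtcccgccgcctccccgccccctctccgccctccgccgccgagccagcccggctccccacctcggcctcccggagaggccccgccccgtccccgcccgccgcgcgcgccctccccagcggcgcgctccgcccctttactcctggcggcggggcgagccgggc
Pim3 chr15:88861944-88862193 (plus strand): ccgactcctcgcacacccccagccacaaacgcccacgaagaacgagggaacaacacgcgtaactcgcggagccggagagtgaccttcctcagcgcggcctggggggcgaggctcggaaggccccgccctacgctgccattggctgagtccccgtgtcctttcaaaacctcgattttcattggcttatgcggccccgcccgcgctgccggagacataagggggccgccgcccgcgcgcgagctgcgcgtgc
Gbx2 chr1:89931177-89931426 (minus strand): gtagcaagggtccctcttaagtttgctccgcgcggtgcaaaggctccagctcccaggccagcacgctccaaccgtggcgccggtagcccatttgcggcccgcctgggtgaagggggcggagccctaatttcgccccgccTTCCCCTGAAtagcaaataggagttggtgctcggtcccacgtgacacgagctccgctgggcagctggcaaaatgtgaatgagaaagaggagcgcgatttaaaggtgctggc
The Socs3 window holds TTCTTAGAA, a match to TTCNNNGAA whose first base lies 154 bases before the start. The Gbx2 window holds TTCCCCTGAA, a match to the longer TTCNNNNGAA, 111 bases before the start. Both windows are placed by the RefSeq start and lie inside the gene loci given below, which begin further upstream. For Gbx2 the GENCODE M21 gene begins at 89931179, beside the RefSeq start at 89931176. The upstream end of its locus, 89933290, is also the end of the opposite-strand gene D130058E05Rik. Whether the matched bases of either gene are in front of the start used in these cells was not tested. Each pattern reads the same on both strands, the patterns differ in length and shared no match in these windows, and no match was found in the printed windows of Pim1 and Pim3. Among all 11 RefSeq promoters of the 9 genes, each pattern was found in 1. Of 32851 RefSeq promoters of the same length, a set with 1 chromosome left out, 7.02% hold TTCNNNGAA and 5.85% hold TTCNNNNGAA. A match is a string of letters, and binding of STAT3 was not measured. The printed windows are rich in G and C, at 71.6% for Socs3, 82.4% for Pim1, 68.0% for Pim3 and 61.6% for Gbx2. The median over the same 32851 promoters was 52.4%.

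All 9 genes are protein coding, and the tables place them on mm10 as follows. Lif (ENSMUSG00000034394) lies on the plus strand at chr11:4257557-4272514, Lifr (ENSMUSG00000054263) on the plus strand at chr15:7129559-7197489 and Il6st (ENSMUSG00000021756) on the plus strand at chr13:112464070-112510086. Jak1 (ENSMUSG00000028530) lies on the minus strand at chr4:101152367-101265282 and Stat3 (ENSMUSG00000004040) on the minus strand at chr11:100885098-100939540. Of the targets, Socs3 (ENSMUSG00000053113) lies on the minus strand at chr11:117966079-117970047, Pim1 (ENSMUSG00000024014) on the plus strand at chr17:29490812-29495445, Pim3 (ENSMUSG00000035828) on the plus strand at chr15:88862186-88865718 and Gbx2 (ENSMUSG00000034486) on the minus strand at chr1:89927962-89933290. In the GENCODE M21 annotation, 4 of them share exon bases with a gene on the opposite strand: Jak1 with Raver2, Stat3 with Stat5a, Pim1 with Gm26885 and Gbx2 with D130058E05Rik. Whether strand was used in counting is not given in the sources used here, so reads from the shared bases of such a pair cannot be told apart.

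Levels are in FPKM, in which fragments are divided by the length of the transcript and scaled to the mapped total, and can be compared between genes. Summed FPKM ran from 661114 to 771389 over the libraries, and depth relative to ESC from 0.909 (NSC-CiPSC line 2) to 1.04 (IEC-CiPSC line 13). Mitochondrial transcripts took from 1.94% (NSC-CiPSC line 2) to 11.6% (NSC) of the sum. Pluripotent markers summed to between 4859 and 8493 FPKM in the CiPSC lines and ESC, to 10.2 in NSC and to 0.571 in IEC. Neural stem markers summed to 5889 in NSC. The label of the IEC library was not borne out by its markers alone: intestinal epithelial markers summed to 216 with 3 of 8 at FPKM 10 or more, whereas fibroblast and mesenchymal markers summed to 6926 (10 of 10), smooth muscle markers to 3982 (6 of 6), leukocyte markers to 3844 (8 of 10) and liver markers to 5893 (6 of 6). In the other 7 libraries these 4 lists summed to at most 232, 95.8, 13.3 and 0.505, with the leukocyte gene Tyrobp listed at 0 in all of them and the liver gene Serpina1a likewise, and the part of these cells in the changes from IEC was not tested. In bulk RNA, fewer cells of a type and less RNA per cell cannot be told apart.

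Each change is a difference on the scale log2(FPKM + 1), where that of low genes comes out too small, given with the standard error (SE) of a limma model fitted to all genes and all 8 libraries and with Benjamini-Hochberg adjusted p-values. A gene passed the test at an adjusted p under 0.05 and a change of at least 2-fold. NSC, IEC and ESC are 1 library each, and the model takes their spread from the CiPSC lines. Separate animals are not named for lines of 1 origin, so the p-values measure only the spread between these lines, which may be technical.

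The first comparisons ask how the pathway changed from each source population to the CiPSC lines made from it. In both, the targets Socs3, Pim1 and Pim3 rose and the upstream genes Il6st and Stat3 fell. Jak1 fell in the intestinal comparison. Lif, Lifr and Gbx2 passed the test in neither. From NSC to NSC-CiPSC 3 of 9 members rose and 2 of 9 fell, where of all genes tested 18.3% rose and 20.7% fell (39.0% in either direction). From IEC to IEC-CiPSC 3 of 9 rose and 3 of 9 fell, against 19.1% and 26.2% of all genes (45.3% in either direction). Changes were thus common among all genes in both comparisons. Over the 4 targets the median log2 change was 2.58 in the neural and 2.71 in the intestinal comparison, and over the receptors, the kinase and the factor it was -1.17 and -1.33, where the medians of all genes tested were 0.026 and -0.028.

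**Figure D1:**
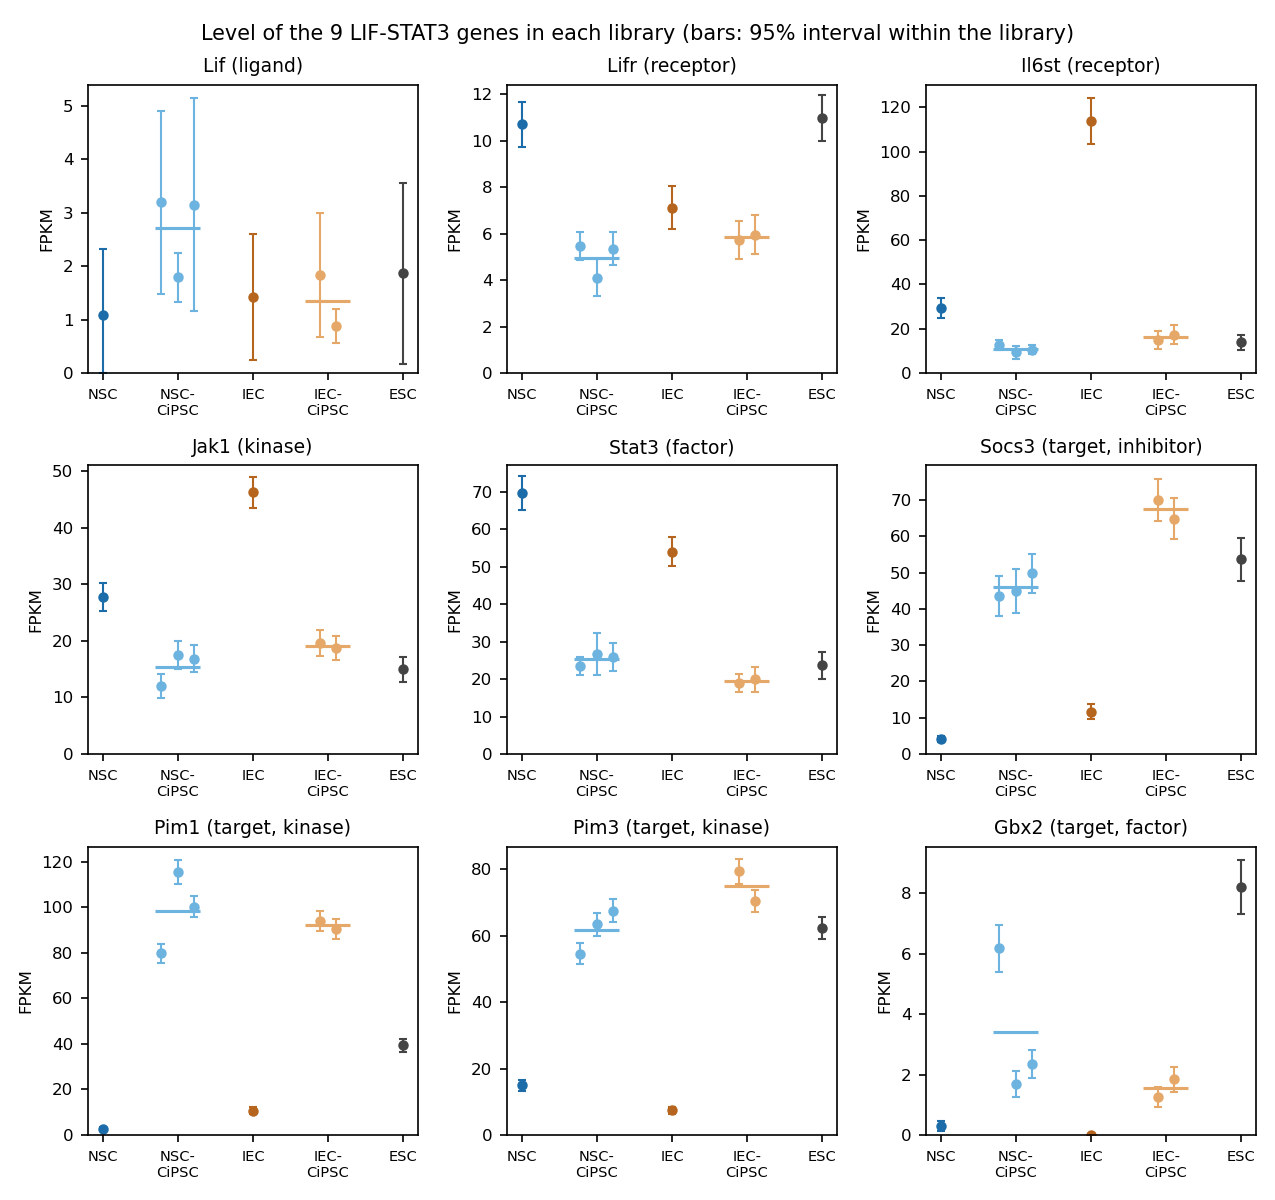
FPKM of the 9 members in each of the 8 libraries, by group, on a linear axis for each gene. Each point is a library, vertical bars are the 95% interval of the file within that library, and horizontal bars are means of the CiPSC lines of an origin. Socs3, Pim1 and Pim3 are higher in all 5 CiPSC lines and ESC than in NSC and IEC, and Stat3 is lower in all of them.

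Lif, the ligand, was low everywhere. It was at FPKM 1.08 in NSC, at 3.19, 1.79 and 3.15 in NSC-CiPSC lines 1, 2 and 3, at 1.43 in IEC, at 1.83 and 0.875 in IEC-CiPSC lines 10 and 13, and at 1.87 in ESC. The lines from NSC lay above the NSC library, while the 2 lines from IEC lay on either side of the IEC library. The interval given in the table for NSC ran from 0 to 2.31 and so reached the level of line 2. The log2 change was 0.81 ± 0.37 (SE; adjusted p = 0.134, limma) from NSC and -0.08 ± 0.39 (adjusted p = 0.889, limma) from IEC. No neighbouring groups in the order of its levels (NSC-CiPSC, ESC, IEC, IEC-CiPSC, NSC) differed by more than the largest range between lines of 1 origin. In each library Lif stood above 21.7% to 41.8% of the genes tested.

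Lifr, the LIF-specific receptor subunit, was at 10.7 in NSC, at 5.47, 4.09 and 5.35 in NSC-CiPSC lines 1, 2 and 3, at 7.12 in IEC, at 5.72 and 5.95 in IEC-CiPSC lines 10 and 13, and at 11.0 in ESC. NSC and ESC were the highest libraries, and all 5 lines lay below both and below IEC. The mean FPKM was 2.15 times lower in NSC-CiPSC than in NSC, and the log2 change of -0.98 ± 0.19 (adjusted p = 0.0145, limma) stopped short of 2-fold on the log2(FPKM + 1) scale. Lifr passed the test under 4 alternatives: with log2(FPKM + 0.1) (-1.10), with mitochondrial transcripts left out of the scaling (-1.23), and without NSC-CiPSC line 1 (-1.04) or line 3 (-1.03). From IEC the log2 change was -0.25 ± 0.20 (adjusted p = 0.339, limma).

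Il6st, whose product gp130 is shared by the receptors of the IL-6 family, was at 29.5 in NSC and at 12.7, 9.39 and 10.6 in NSC-CiPSC lines 1, 2 and 3. It was at 113.9 in IEC, at 14.8 and 17.4 in IEC-CiPSC lines 10 and 13, and at 13.8 in ESC. IEC stood far above every other library, NSC came next, and ESC lay between the lines of both origins. Il6st fell from NSC, with a log2 change of -1.37 ± 0.19 (adjusted p = 0.00619, limma) and a mean FPKM 2.71 times lower. It also fell from IEC, with a log2 change of -2.75 ± 0.21 (adjusted p = 0.000856, limma) and a mean 7.07 times lower. The 4 lists of other cell types were high in the same IEC library, and their part in its Il6st level was not tested.

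Jak1, the receptor-bound kinase, was at 27.8 in NSC, at 12.0, 17.5 and 16.8 in NSC-CiPSC lines 1, 2 and 3, at 46.2 in IEC, at 19.6 and 18.7 in IEC-CiPSC lines 10 and 13, and at 14.9 in ESC. Both source libraries lay above every line, and ESC lay within the range of the NSC-CiPSC lines. Jak1 fell from IEC, with a log2 change of -1.23 ± 0.25 (adjusted p = 0.0157, limma). That call was lost without IEC-CiPSC line 10 (adjusted p = 0.0653, limma) and without line 13 (adjusted p = 0.0725, limma). From NSC the log2 change was -0.83 ± 0.24 (adjusted p = 0.0437, limma), under 2-fold.

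Stat3, the transcription factor of the pathway, was at 69.7 in NSC and at 23.5, 26.7 and 26.0 in NSC-CiPSC lines 1, 2 and 3. It was at 54.0 in IEC, at 19.0 and 19.9 in IEC-CiPSC lines 10 and 13, and at 23.7 in ESC. Both source libraries were high and all 6 pluripotent libraries were lower, with no overlap between them. Stat3 fell from NSC, with a log2 change of -1.43 ± 0.10 (adjusted p = 0.000934, limma), and from IEC, also by -1.43 ± 0.10 (adjusted p = 0.000762, limma). The mean FPKM was 2.75 and 2.78 times lower in the lines. Stat3 remained an abundant transcript, above 73.0% to 78.5% of the genes tested in the lines against 91.3% in NSC and 90.0% in IEC. Stat5a, which overlaps the end of Stat3 on the other strand, was at 5.62 in NSC, 4.60 in IEC and 1.79 to 3.00 in the lines.

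Among the targets, Socs3, the feedback inhibitor, was at 4.10 in NSC and at 43.5, 44.9 and 49.8 in NSC-CiPSC lines 1, 2 and 3. It was at 11.7 in IEC, at 70.1 and 64.8 in IEC-CiPSC lines 10 and 13, and at 53.6 in ESC. Every line lay far above its source, and ESC lay between the lines of the 2 origins. Socs3 rose by 3.20 ± 0.11 on the log2 scale from NSC (adjusted p = 0.000166, limma), a mean FPKM 11.2 times higher, and by 2.43 ± 0.11 from IEC (adjusted p = 0.000223, limma), 5.76 times higher. It moved from above 41.5% of the genes tested in NSC and 59.6% in IEC to above 86.1% to 91.3% in the lines.

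Pim1, the kinase with the largest rise from NSC among the members, was at 2.81 in NSC and at 79.8, 115.5 and 100.3 in NSC-CiPSC lines 1, 2 and 3. It was at 10.6 in IEC, at 93.8 and 90.4 in IEC-CiPSC lines 10 and 13, and at 39.4 in ESC. All 5 lines lay above ESC, and ESC lay above both sources. Pim1 rose by 4.69 ± 0.22 on the log2 scale from NSC (adjusted p = 0.000391, limma) and by 3.00 ± 0.23 from IEC (adjusted p = 0.000980, limma). The mean FPKM was 35.0 and 8.67 times higher. Gm26885, on the opposite strand, was at no more than 0.327 in any library.

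Pim3, a close relative of Pim1, was at 15.0 in NSC, at 54.6, 63.4 and 67.5 in NSC-CiPSC lines 1, 2 and 3, at 7.45 in IEC, at 79.3 and 70.4 in IEC-CiPSC lines 10 and 13, and at 62.4 in ESC. The lines and ESC formed 1 high range, with NSC and IEC below it. Pim3 rose by 1.97 ± 0.15 on the log2 scale from NSC (adjusted p = 0.00125, limma) and by 3.16 ± 0.16 from IEC (adjusted p = 0.000288, limma). The mean FPKM was 4.12 and 10.05 times higher.

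Gbx2, the homeobox target, was at 0.301 in NSC, at 6.18, 1.70 and 2.35 in NSC-CiPSC lines 1, 2 and 3, listed at 0 in IEC, at 1.25 and 1.85 in IEC-CiPSC lines 10 and 13, and at 8.20 in ESC. Every line lay above its source and below ESC, and line 1 stood well above the other lines. With that spread the log2 change was 1.63 ± 0.62 from NSC (adjusted p = 0.0896, limma) and 1.34 ± 0.66 from IEC (adjusted p = 0.150, limma). Without NSC-CiPSC line 1, Gbx2 passed the test in both comparisons, with a log2 change of 1.21 from NSC (adjusted p = 0.0265, limma) and 1.34 from IEC (adjusted p = 0.0190, limma). D130058E05Rik, on the opposite strand, was likewise lowest in IEC, then NSC, and highest in ESC, at 1.31 in NSC, 0.161 in IEC, 3.87 to 5.25 in the lines and 7.72 in ESC, and its reads cannot be separated from those of Gbx2 where they overlap.

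**Figure D2:**
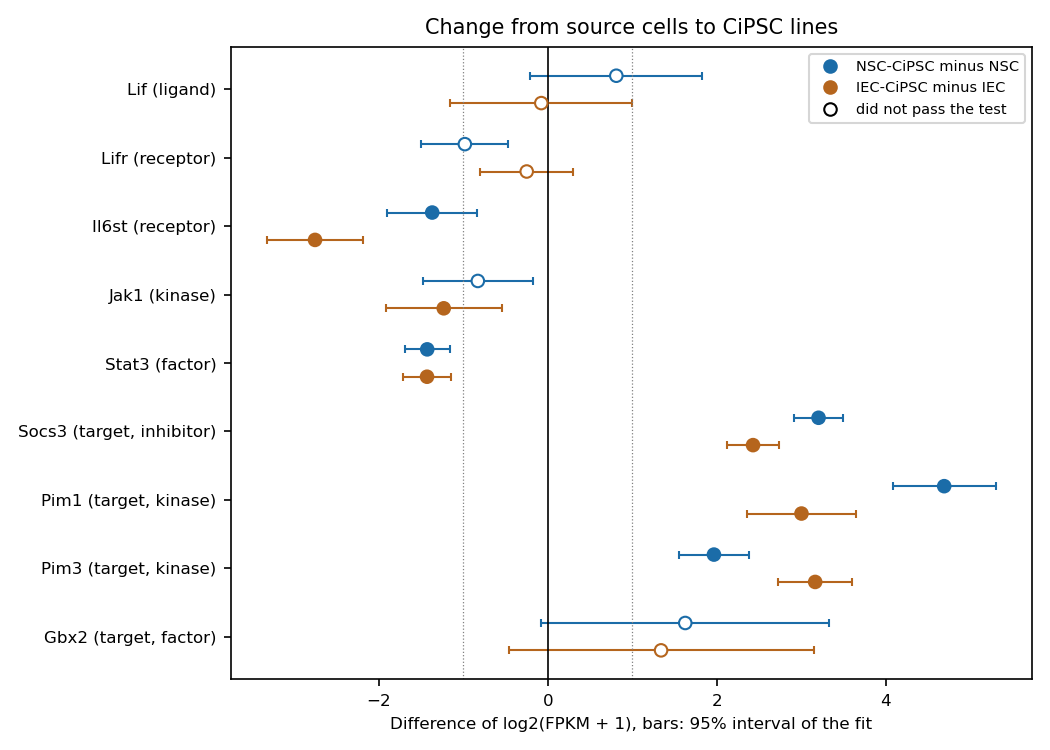
Log2 change of each member in NSC-CiPSC from NSC, and in IEC-CiPSC from IEC, on the log2(FPKM + 1) scale, with 95% intervals of the limma model. Filled points passed the test and dotted lines mark a 2-fold change: Socs3, Pim1 and Pim3 lie to the right and Il6st and Stat3 to the left in both comparisons.

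Whether a member changed by a different amount on the 2 routes was tested as the difference between the changes, which takes in the whole difference of NSC from IEC, 1 library each. For 3 of 9 members the difference passed the test, where 30.5% of all genes tested did (17.6% higher and 12.9% lower on the neural route). Pim1 rose more from NSC, by 1.69 ± 0.32 on the log2 scale (adjusted p = 0.0209, limma). Pim3 rose more from IEC, with a difference of -1.20 ± 0.22 (adjusted p = 0.0187, limma). Il6st fell less from NSC, with a difference of 1.39 ± 0.28 (adjusted p = 0.0246, limma). In each case the source libraries differed more than the lines did: Pim1 was at 2.81 and 10.6 in NSC and IEC and at a mean of 98.5 ± 17.9 (SD, n = 3) and 92.1 ± 2.46 (SD, n = 2) in the lines made from them. Stat3 changed by amounts whose difference was 0.00 (adjusted p = 0.994, limma), and Socs3 by amounts that differed by 0.78 ± 0.15 (adjusted p = 0.0233, limma), under 2-fold. The calls rest on few libraries. Without IEC-CiPSC line 10 or line 13 none of the 3 passed, and without NSC-CiPSC line 3 neither Il6st nor Pim1 did.

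The next comparisons set the lines of each origin beside ESC. They share the ESC library as their control. The strain labels of ESC and of the lines differ too, so strain and kind of line cannot be told apart in these comparisons. None of the 9 members passed the test for NSC-CiPSC against ESC or for IEC-CiPSC against ESC with limma, where 2.81% (0.946% higher, 1.86% lower) and 3.36% (1.63% higher, 1.73% lower) of all genes tested did. At an unadjusted p under 0.05 there were 2 of 9 members in the first comparison and 4 of 9 in the second, where 22.1% and 24.1% of all genes had such a p. Pim1 was 2.50 times higher by mean FPKM in NSC-CiPSC than in ESC, a log2 difference of 1.28 with a 95% interval of 0.68 to 1.89 (adjusted p = 0.0671, limma). In IEC-CiPSC it was 2.34 times higher, a log2 difference of 1.20 ± 0.23 (adjusted p = 0.0774, limma). It passed in both comparisons when genes needed FPKM 1 in at least 2 libraries (adjusted p = 0.0406 and 0.0470, limma), when only the CiPSC lines and ESC were fitted (0.0371 and 0.0439) and without NSC-CiPSC line 1 (0.0313 and 0.0331).

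The receptor and Gbx2 lay on the other side of ESC. Lifr was 2.21 times lower in NSC-CiPSC than in ESC, a log2 difference of -1.01 with a 95% interval of -1.53 to -0.50 (adjusted p = 0.0757, limma), and 1.88 times lower in IEC-CiPSC, a log2 difference of -0.81 ± 0.20 (adjusted p = 0.111, limma). Gbx2 was 2.41 times lower in NSC-CiPSC (log2 difference -1.20 ± 0.62, adjusted p = 0.358, limma) and 5.29 times lower in IEC-CiPSC (-1.86 ± 0.66, adjusted p = 0.199, limma). Without NSC-CiPSC line 1, the Gbx2 difference between IEC-CiPSC and ESC passed the test (adjusted p = 0.0450, limma). For both genes each of the 5 lines lay below ESC.

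Other members lay near ESC, within limits set by the intervals. For NSC-CiPSC against ESC the log2 difference was 0.09 for Stat3 (95% interval -0.17 to 0.36), -0.22 for Socs3 (-0.51 to 0.07) and -0.02 for Pim3 (-0.43 to 0.40). For IEC-CiPSC against ESC it was -0.27 for Stat3 (adjusted p = 0.217, limma), 0.32 for Socs3 (adjusted p = 0.193, limma) and 0.26 for Pim3 (adjusted p = 0.408, limma). A p that misses the threshold does not show that levels were equal.

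**Figure D3:**
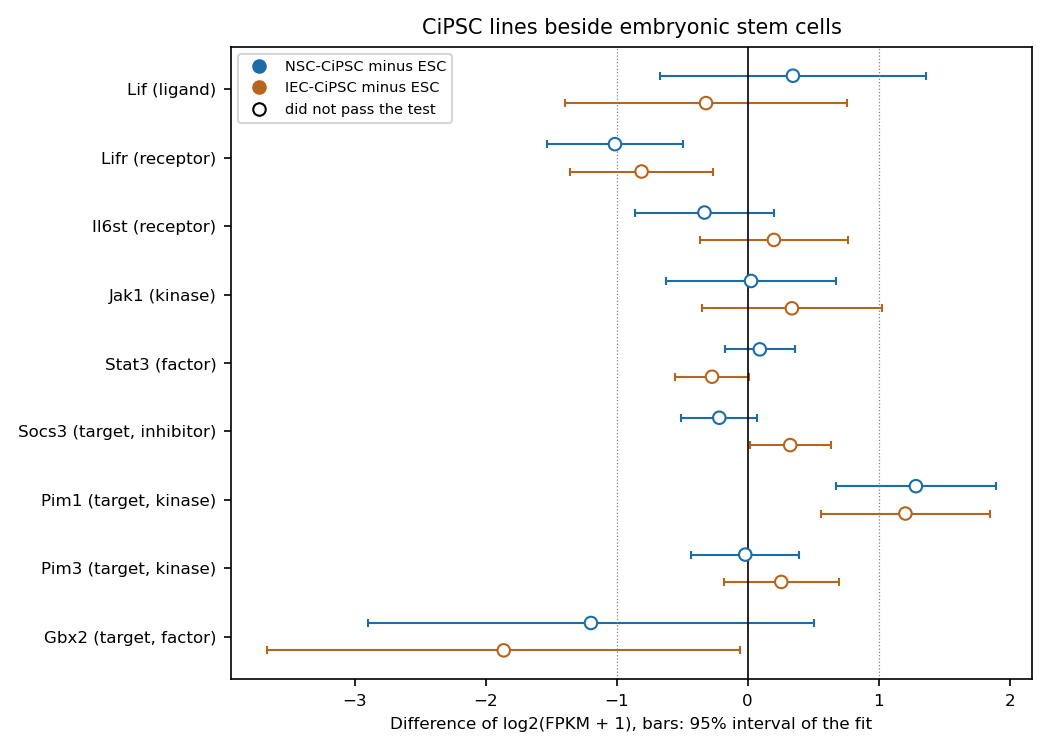
Log2 difference of each member between the CiPSC lines of each origin and ESC, on the log2(FPKM + 1) scale, with 95% intervals of the limma model. No member passed the test. Pim1 lies above 0, and Lifr and Gbx2 below 0, for the lines of both origins.

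Lines of the 2 origins were compared directly, the comparison in which both groups have replicates. None of the 9 members passed the test with limma, where 4.32% of all genes tested did (1.56% higher and 2.76% lower in NSC-CiPSC), and 3 of 9 members had an unadjusted p under 0.05, as did 28.8% of all genes. Socs3 was at 46.1 ± 3.29 (SD, n = 3) in NSC-CiPSC and 67.5 ± 3.70 (SD, n = 2) in IEC-CiPSC with no overlap between lines, a log2 difference of -0.54 ± 0.08 (adjusted p = 0.0376, limma) that is under 2-fold. Stat3 was at 25.4 ± 1.67 (SD, n = 3) and 19.5 ± 0.657 (SD, n = 2), also with no overlap, a log2 difference of 0.36 ± 0.08 (adjusted p = 0.0654, limma). Stat3 was higher in every NSC-CiPSC line, and Socs3 in every IEC-CiPSC line. The lines of the 2 origins also did not overlap for Lifr, Il6st, Jak1 and Pim3, each higher in every IEC-CiPSC line. With so few lines such a separation is easily met, and its share over all genes was not counted. Il6st was at 10.9 ± 1.65 (SD, n = 3) and 16.1 ± 1.83 (SD, n = 2), a log2 difference of -0.53 ± 0.15 (adjusted p = 0.117, limma). Within NSC-CiPSC, line 1 was the lowest of the 3 lines for Jak1, Stat3, Socs3, Pim1 and Pim3. It was the highest for Lif, Lifr, Il6st and Gbx2. Some of these ranks rest on small gaps to the next line: 3.19 and 3.15 for Lif, 5.47 and 5.35 for Lifr, and 43.5 and 44.9 for Socs3.

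The group means were also put in order. A step between neighbouring groups is called clear where it exceeded the largest range between lines of 1 origin on the log2 scale. That rule is not a test, and NSC, IEC and ESC are 1 library each. Socs3 was ordered IEC-CiPSC, ESC, NSC-CiPSC, IEC, NSC, with every step clear by this rule. Its steps on either side of ESC were small, at 0.32 and 0.22 against a range of 0.19. Neither difference from ESC passed the limma test. For Pim1 the lines of both origins came first and did not differ beyond that range, followed by ESC, IEC and NSC with clear steps. For Pim3 the lines and ESC did not differ beyond it, and NSC and IEC followed with clear steps. For Stat3 the steps from NSC to IEC and from IEC to the pluripotent groups were clear, and NSC-CiPSC and ESC could not be told apart. IEC-CiPSC lay below ESC by 0.27 against a range of 0.18, a difference that did not pass the limma test. Il6st and Jak1 were highest in IEC and then NSC, with clear steps. The Jak1 step from NSC down to IEC-CiPSC was only just clear, at 0.515 against a range of 0.510. Among the pluripotent groups no Jak1 difference was clear, and for Il6st ESC could not be told apart from the lines of either origin, which themselves differed beyond the range. For Lifr, ESC and NSC could not be told apart and lay above the rest. For Lif and Gbx2 no step between neighbouring groups was clear. Groups further apart could differ beyond the range, as Gbx2 did between IEC-CiPSC and ESC (-1.86 against a range of 1.41). Lif did so between NSC-CiPSC and NSC (0.81 against 0.59).

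Beyond the members, 50 other genes of the pathway were followed, of which 47 passed the filter. Il6, Il11 and Gbx1 did not, with highest levels of 0.534, 0.359 and 0.349 FPKM in any library. From NSC 16 of 47 rose and 8 fell, and from IEC 9 rose and 14 fell. Of all genes tested 18.3% rose and 20.7% fell from NSC, and 19.1% rose and 26.2% fell from IEC. The counts by role below are to be read beside these shares. Their median log2 change was 0.51 from NSC and -0.31 from IEC, where the medians of all genes tested were 0.026 and -0.028.

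Of 4 receptors of related cytokines tested, 2 fell from NSC and 4 from IEC, and none passed the test as higher. Cntfr, the receptor of ciliary neurotrophic factor, reached 40.4 FPKM in NSC and 21.2 in IEC, and its log2 changes were -1.86 and -3.04. Il11ra1, the IL-11 receptor, fell from 15.6 FPKM in NSC to a mean of 4.55 in the lines (log2 change -1.58) and from 100.8 in IEC to 2.33 (-4.94). Osmr, the oncostatin M receptor, was at 16.6 FPKM in IEC (log2 change -3.54), and Il6ra, the IL-6 receptor, at 10.2 (-1.30). Among 4 ligands none passed the test from NSC, and Ctf1 and Clcf1, cytokines of the same family, fell from IEC (log2 changes -2.05 and -1.86). The markers of other cell types, high in IEC, moved with these falls, and their part was not tested.

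Among the other kinases Jak2 fell from 14.7 FPKM in NSC and 17.7 in IEC to a mean of 1.54 and 1.93 in the lines, log2 changes of -2.63 and -2.70. Jak3 and Tyk2 rose from NSC by 1.94 and 1.08, and neither passed the test from IEC. Among the other STAT factors, Stat6, the factor of IL-4 signalling, and Stat4, that of IL-12 signalling, rose from NSC by 2.71 and 2.22 and did not pass from IEC. Of 14 inhibitors and phosphatases 5 rose and 1 fell from NSC, and 3 rose and 2 fell from IEC. Ptpn2, a nuclear phosphatase of JAK and STAT proteins, rose by 1.52 in each comparison, and Pias2, of the family of protein inhibitors of activated STAT, by 1.34 and 1.93. Socs5, a relative of Socs3, fell in both (-2.00 and -2.05). Of 5 adaptors Gab1 rose by 2.09 and 1.45. Shc1 rose by 2.23 from NSC, and Ptpn11, the phosphatase SHP2 recruited to gp130, fell from NSC (-1.23), and neither passed the test from IEC.

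Other genes known as targets of STAT3 divided. Of 10 tested, 5 rose and 2 fell from NSC, and 5 rose and 4 fell from IEC. The transcription factors Klf4, Klf5 and Tfcp2l1, which support the self-renewal of mouse embryonic stem cells, rose by 5.03, 4.43 and 4.69 on the log2 scale from NSC and by 1.75, 2.85 and 5.18 from IEC. Bcl3, an atypical IkB protein, rose by 4.24 and 2.17, and Mcl1, a survival gene of the BCL2 family, by 2.06 and 1.52. Cebpd, a factor of the acute phase and of differentiation, fell in both (-1.77 and -3.85), as did Bcl6, a transcriptional repressor (-1.63 and -2.18). Cebpb and Junb fell from IEC (-2.97 and -1.42) and did not pass the test from NSC. Klf4, Klf5 and Tfcp2l1 are also counted among the genes of the pluripotency network.

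Against ESC, 1 of these 47 genes passed the test in NSC-CiPSC, Il6ra (lower, -1.47 on the log2 scale), and 2 did in IEC-CiPSC, Jak3 and Gab1 (lower, -2.00 and -1.18), where 2.81% and 3.36% of all genes passed. Between the lines of both origins, Cntfr (2.08), Stat4 (1.32) and Jak3 (1.18) were higher in NSC-CiPSC, and Tfcp2l1 (-1.69) and Il6ra (-1.51) were higher in IEC-CiPSC. Of all genes tested 4.32% passed there (1.56% higher and 2.76% lower in NSC-CiPSC). Tfcp2l1, a target through which STAT3 is known to act in embryonic stem cells, was at 22.0, 36.5 and 35.3 FPKM in NSC-CiPSC lines 1, 2 and 3, at 99.5 and 101.5 in IEC-CiPSC lines 10 and 13 and at 59.5 in ESC. By mean, Tfcp2l1, Socs3 and Pim3 shared an order of the pluripotent groups, with the lines from IEC highest and those from NSC lowest. Klf4 and Klf5 did not have that order. For Pim3 it rests on a small gap, with NSC-CiPSC at 61.8 and ESC at 62.4. NSC-CiPSC lines 2 and 3 lay above ESC for Pim3. The order was not particular to STAT3 targets. The receptor subunit Il6st had it, at 16.1 in IEC-CiPSC, 13.8 in ESC and 10.9 in NSC-CiPSC. Among the 6 pluripotent markers, Pou5f1 and Nanog had it, and Zfp42, Esrrb, Dppa5a and Tdgf1 did not. A shared cause was not tested.

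**Figure D4:**
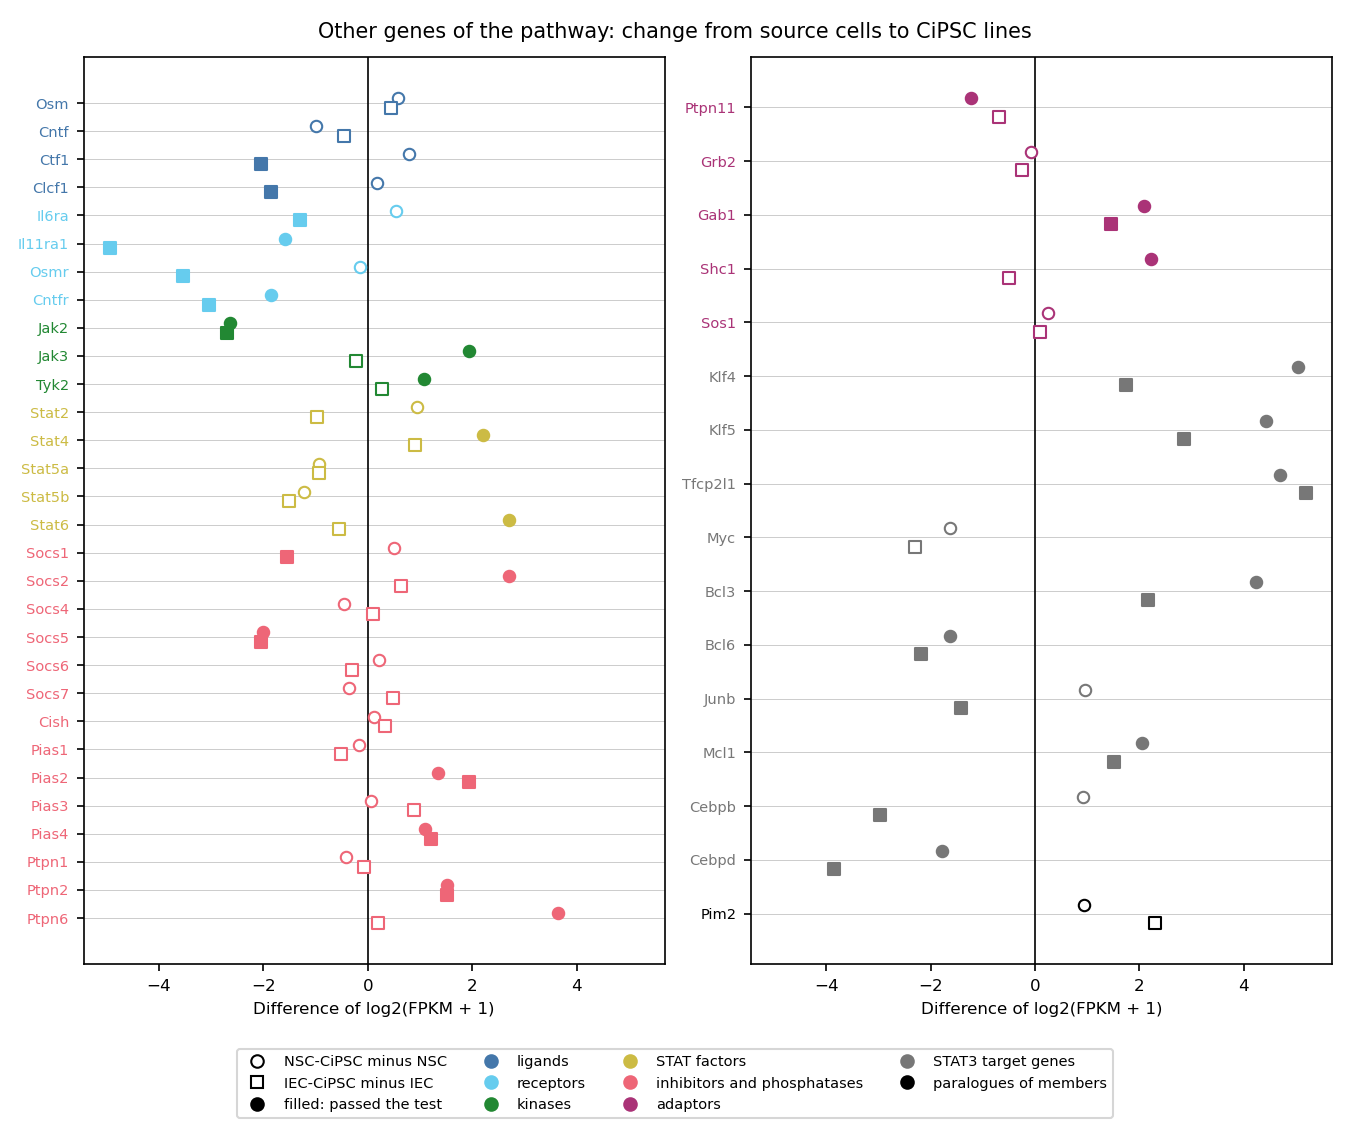
Log2 change from source to lines of other pathway genes tested, by role, on the log2(FPKM + 1) scale. Filled points passed the test. The 4 receptors lie to the left of 0 in the intestinal comparison, and Klf4, Klf5, Tfcp2l1, Bcl3 and Mcl1 lie to the right in both comparisons.

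The genes whose profile over all 8 libraries was most like that of a member were ranked by Pearson's r on log2(FPKM + 1) among 9791 genes that reached FPKM 5 and spanned at least 2-fold, as a description only, since 8 libraries in 5 groups leave few independent points. For Socs3 they were Morc3, Qars and Tdrp (r = 0.992 each). For Pim1 they were Rpl15 (0.996), Dhdh (0.994) and Gyltl1b (0.991), and for Pim3 Tomm7 (0.998), Alms1 (0.997) and Hnrnpf (0.997). For Stat3 they were Rap1b (0.996), Rmdn1 and Hmgn3 (0.993 each), and for Il6st Ecm1 (0.993), Kctd11 (0.991) and Pxk (0.989). For Gbx2 they were Cdk12, Gtf3c2 (0.995 each) and Setdb1 (0.992), for Jak1 Lysmd4, Gpr108 and Erp29 (0.993 each), and for Lifr Kifc3 (0.964), Exoc8 (0.948) and D3Ertd751e (0.943). Lifr was the member with the least close match. Lif was left out because its level was low in all libraries.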

How the data were processed

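Total RNA came from the RNeasy Plus Mini kit and was made into libraries with NEBNext Ultra reagents, per the labels' protocols. The submitters' processing notes name TopHat, Cufflinks and the mm10 build, with versions not given in the sources used here. The values are the FPKM of the deposited tables, each with an interval within its library. Of 39009 entries, 447 marked LOWDATA or FAIL in any library and 162 on patches were left out, and 27 symbols turned into dates were restored. The test used the 17011 genes that reached FPKM 1 in 1 library or more, on log2(FPKM + 1), a pseudocount of 1. The model (limma 3.58.1, R 4.3.3) had 1 mean for each of 5 groups, empirical Bayes with a trend, 3 residual degrees of freedom (1.10 prior) and Benjamini-Hochberg adjustment over all genes. Calls needed 2-fold or more together with an adjusted p below 0.05. The model was also run on simulated data that gave every library the same spread. Such data cannot show whether the lone libraries vary as the lines do. FPKM hold no read counts, so depth is known only relative to ESC, from the intervals.

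All 9 members are named. Of the other pathway genes, up to 4 called genes for each role and comparison with the highest mean FPKM in the higher group were eligible, and 1 gene of the list, kept in the counts, is not reported here by name. The members and lists were chosen with earlier results of these data known. Alternatives were 2 other pseudocounts, 2 filters, 3 scalings, no trend, fewer libraries in the fit and leaving out each line. Promoters are from RefSeq (GRCm38.p6), matched by symbol for all 9 members. Further tools were matplotlib 3.10.9, NumPy 2.4.6 and pandas 2.3.3 under Python 3.11.15.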

Additional observations from a re-analysis of the deposited data

Results flagged for a closer look

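For 3 members the change from source cells to CiPSC lines differed between the neural and the intestinal route. The difference itself was tested, on the log2(FPKM + 1) scale, and 30.5% of all genes tested passed. Such differences were thus common among all genes. The calls of these members rest on few libraries and were lost when either IEC-CiPSC line was left out. Pim1, the growth and survival kinase, rose more on the neural route, by 1.69. Il6st, the gp130 subunit, fell less on it, a difference of 1.39. Pim3 rose less on it, a difference of -1.20. The source libraries, 1 each, were at 2.81 and 10.6 FPKM (NSC and IEC) for Pim1, 29.5 and 113.9 for Il6st and 15.0 and 7.45 for Pim3. The IEC library also held high levels of fibroblast, smooth muscle, leukocyte and liver markers, whose part was not tested.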

How the results depend on the processing

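Il6st, Stat3, Socs3, Pim1 and Pim3 kept their direction and their call from source to lines under all 14 alternatives. Of 756 values of members by comparison and alternative, 710 kept direction and side of the threshold, 17 gained a call, 12 lost one and 17 changed sign. With log2(FPKM + 5) the genes called numbered 4109 (from NSC; 6639 otherwise), 4780 (from IEC; 7714), 257 (NSC-CiPSC against ESC; 478), 326 (IEC-CiPSC against ESC; 572), 325 (between origins; 735) and 3407 (between routes; 5191), and 1 member, Il6st, differed between routes in place of 3. Leaving out 1 line, they ran from 187 (without IEC-CiPSC line 10) to 727 (without NSC-CiPSC line 1) for NSC-CiPSC against ESC. For IEC-CiPSC against ESC they ran from 153 (without IEC-CiPSC line 13) to 897 (without NSC-CiPSC line 1), and between origins from 98 (without IEC-CiPSC line 13) to 795 (without NSC-CiPSC line 1). Members called against ESC then ran from 0 to 1 (NSC-CiPSC) and 0 to 2 (IEC-CiPSC), and between routes from 0 to 3. With FPKM 1 required in 2 libraries, or only the lines and ESC fitted, 1 member, Pim1, was called against ESC for each origin.

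Gbx2 passed the test from both sources with log2(FPKM + 0.1) (2.91 and 4.02), Jak1 from NSC with mitochondrial transcripts left out of the scaling (-1.10), and Lifr from NSC under 4 alternatives (-1.03 to -1.23). The sign changes were all of values that did not pass the test. From IEC, Lif was 0.47 and Lifr 0.20 with quantile normalization, which moved the median of all genes from -0.028 to 0.15 and the split from 3252 higher and 4462 lower to 4080 and 3674. Quantile normalization also gave 2552 higher and 2818 lower between routes (2989 and 2202 otherwise, with the median of all genes moving to -0.14), and the mitochondrial rescaling 2501 and 4282 from NSC (3112 and 3527 otherwise). Leaving out 1 line, Lif from IEC ran from -0.37 (without IEC-CiPSC line 10) to 0.22 (without line 13). Against ESC in NSC-CiPSC, Jak1 was -0.033 with median ratio factors and -0.099 with the mitochondrial rescaling, and ran from -0.067 (without line 2) to 0.19 (without line 1). In the same comparison Stat3 was -0.035 with the mitochondrial rescaling, and Pim3 ran from -0.083 (without line 3) to 0.067 (without line 1). Between origins Pim1 ran from -0.041 (without NSC-CiPSC line 2) to 0.22. Between routes Stat3 was -0.029 with log2(FPKM + 5) and -0.14 with the mitochondrial rescaling, and ran from -0.033 (without NSC-CiPSC line 2) to 0.055 (without line 1). Gbx2 was -1.11 with log2(FPKM + 0.1) and ran from -0.13 (without NSC-CiPSC line 1) to 0.57 (without line 2). The cause of these changes was not tested.

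No paired analysis was possible because the groups share no replicate numbers in the labels. Lone libraries of NSC, IEC and ESC set the limit on every comparison with them, and Lif and Gbx2 lie near the level where few fragments carry the value.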

Other observations

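Myc and Pim2, named after their values were seen, varied between lines of 1 origin more than most members did. Myc, a proto-oncogene transcription factor and a known target of STAT3, was at 16.9 FPKM in NSC, at 21.0, 1.54 and 2.53 in NSC-CiPSC lines 1, 2 and 3, at 9.12 in IEC, at 0.740 and 1.44 in IEC-CiPSC lines 10 and 13, and at 11.7 in ESC. Line 1 lay with NSC and ESC, and the other 4 lines lay below every other library. Pim2, the third PIM kinase, was at 29.5, 10.1 and 9.36 in NSC-CiPSC lines 1, 2 and 3, with 6.92 in NSC, 6.06 in ESC, 2.35 in IEC and 18.8 and 12.5 in IEC-CiPSC lines 10 and 13. All 5 lines lay above ESC, and line 1 was the highest library. Socs2, another inhibitor of cytokine signalling, was at 45.9, 14.7 and 27.4 in the same 3 lines, again highest in line 1. Line 1 was also the highest of all CiPSC lines for Gbx2, at 6.18.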
